A study of Mus musculus with 16 samples.

Results

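The T cell receptor β chain meets its antigen mainly through the third complementarity-determining region (CDR3), a short loop written where a V, a D and a J gene segment are joined. During joining the segment ends are trimmed and non-templated bases are inserted, so most CDR3s are seen in 1 animal only, and a CDR3 seen in many animals is called public. Described here are the 311 public CDR3s of tumor-infiltrating T cells, which were 0.334% of the 92981 different productive CDR3 amino acid sequences in 16 mice. The members were chosen by their presence alone: a CDR3 qualified if an in-frame rearrangement encoding it was listed in at least 8 of the 16 samples, whatever the group. Of the rest, 81216 CDR3s were found in 1 sample, called private below, and 11454 in 2 to 7.

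All mice were female C57BL/6 animals with subcutaneous KPC-Luc tumors, grown from a pancreatic ductal adenocarcinoma line that carries luciferase. Each of the 4 groups had 4 samples. The control group had a scrambled peptide with isotype IgG, the ANT008 group the VIP receptor antagonist peptide ANT008 with IgG, the anti-PD-1 group the scrambled peptide with anti-PD-1, and the combination group both ANT008 and anti-PD-1, with 10 µg of peptide daily under the skin and 200 µg of antibody into the peritoneum every 3 days over 10 days. The samples are titled as T cells and were not split into CD4+ and CD8+ cells. The paper describes CD90.2 bead selection of tumor T cells for another assay, while its TCR sequencing text names harvested tumors. The α chain was not measured either, so neither the subset nor the antigen of a CDR3 is known here. A template is a starting molecule as estimated by the sequencing service, and the sources differ on whether DNA or RNA was used, so a template may be a transcript and not a cell. In bulk T cells, more cells of a clone and more templates per cell cannot be told apart. Productive templates numbered 7180 to 72588 per sample (median 32564).

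The sequences show how 1 CDR3 was written in different ways. Each runs 5′ to 3′ from the first codon of the CDR3 to the codon before its last residue, where the 87-base read ends, and capitals mark bases that the service called as inserted at a junction. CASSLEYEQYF was found in all 16 samples, and its 5 rearrangements with the most templates spelled the same residues with different codons and, in the fifth, with another V gene.
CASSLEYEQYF rearrangement 1, TCRBV12-01, in 9 samples: tgtgccagctctctcgaGtatgaacagtac
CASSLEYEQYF rearrangement 2, TCRBV12-01, in 7 samples: tgtgccagctctctcgaAtatgaacagtac
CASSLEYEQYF rearrangement 3, TCRBV12-01, in 3 samples: tgtgccagctctctggaAtatgaacagtac
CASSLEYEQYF rearrangement 4, TCRBV12-01, in 7 samples: tgtgccagctctctggaGtatgaacagtac
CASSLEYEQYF rearrangement 5, TCRBV29-01, in 1 sample: tgtgctagcagtttagaGtatgaacagtac

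The leading rearrangement of the 4 other CDR3s found in all 16 samples is shown for its small number of inserted bases, which was 0, 3, 0 and 2. For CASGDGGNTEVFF the service called no D gene and no inserted base, which leaves unsettled whether a D segment was joined. The 37 rearrangements of the 15-residue CDR3 held 3 to 7 inserted bases each.
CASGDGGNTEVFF, TCRBV13-02 and TCRBJ01-01, in 10 samples: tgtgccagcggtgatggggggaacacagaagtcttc
The 15-residue CDR3 of TCRBV12-01 and TCRBJ01-04, in 10 samples: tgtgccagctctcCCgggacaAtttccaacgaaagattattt
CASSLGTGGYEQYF, TCRBV03-01 and TCRBJ02-07, in 2 samples: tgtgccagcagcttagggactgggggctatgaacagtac
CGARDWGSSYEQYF, TCRBV20-01 and TCRBJ02-07, in 11 samples: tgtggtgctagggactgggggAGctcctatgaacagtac

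The 4 members with the highest mean share of templates are shown because they carried much of the template count, a choice of sequences made after the values were seen. Their leading rearrangements held 1, 0, 0 and 3 inserted bases.
The 15-residue CDR3 of TCRBV16-01 and TCRBJ02-07, 3023 templates in 4 samples: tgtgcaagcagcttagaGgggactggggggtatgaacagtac
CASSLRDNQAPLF, TCRBV03-01 and TCRBJ01-05, 5908 templates in 2 samples: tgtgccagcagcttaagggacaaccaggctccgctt
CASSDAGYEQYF, TCRBV13-03 and TCRBJ02-07, 4193 templates in 6 samples: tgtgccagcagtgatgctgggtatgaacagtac
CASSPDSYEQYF, TCRBV29-01 and TCRBJ02-07, 496 templates in 2 samples: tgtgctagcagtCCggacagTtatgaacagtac

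For contrast, the most abundant private rearrangement of each group is given. These 4 held 4, 5, 2 and 3 inserted bases and took up 8.19%, 5.29%, 1.33% and 7.31% of the productive templates of their sample. The highest share of any public CDR3 was 9.14%, summed over its 10 rearrangements in control replicate 1.
Private in control replicate 4, TCRBV14-01 and TCRBJ02-07: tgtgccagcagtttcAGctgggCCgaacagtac
Private in ANT008 replicate 1, TCRBV16-01 and TCRBJ02-07: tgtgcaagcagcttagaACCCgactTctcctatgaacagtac
Private in anti-PD-1 replicate 3, TCRBV19-01 and TCRBJ02-07: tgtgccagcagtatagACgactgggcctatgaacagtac
Private in combination replicate 1, TCRBV13-01 and TCRBJ02-02: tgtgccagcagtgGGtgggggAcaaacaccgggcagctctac

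The number of CDR3s fell with each further sample required. There were 103 in exactly 8 samples, 74 in 9, 52 in 10, 32 in 11, 18 in 12, 11 in 13, 9 in 14, 7 in 15 and 5 in all 16. Just outside the threshold, 158 CDR3s were found in 7 samples. The 7-sample CDR3s had a mean of 1.91 inserted bases and 1.45 rearrangements per sample, and the 8-sample CDR3s 1.87 and 1.43. Of the 311 members, 295 were found in all 4 groups. The other 16 were missing from every mouse of 1 group, which was control for 8, ANT008 for 5, anti-PD-1 for 2 and combination for 1. These counts were not tested, no such count is given for other CDR3s, and depth differed between samples.

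The next question was how many public CDR3s each mouse held and how much of its repertoire they filled. A sample held 103 to 244 of the 311 (median 201), and these took up 4.30% to 15.8% of its productive templates (median 10.9%). Control samples 1 to 4 held 142, 200, 211 and 150 public CDR3s, ANT008 samples 172, 232, 128 and 155, anti-PD-1 samples 214, 183, 244 and 103, and combination samples 225, 202, 231 and 240. The combination samples spanned the narrowest range, and every group overlapped with it. The fewest, 103, came from the anti-PD-1 sample with 7180 templates and the most, 244, from the anti-PD-1 sample with 72588. With every sample thinned at random to 7180 templates, the means were 83.5 ± 13.8 in control, 105.25 ± 9.84 in ANT008, 101.25 ± 10.4 in anti-PD-1 and 107 ± 14.99 in combination mice (SD, n = 4), and the groups still overlapped. The share of templates was 10.3% ± 3.15 in control, 9.69% ± 4.18 in ANT008, 12.03% ± 3.25 in anti-PD-1 and 9.10% ± 4.97 in combination mice (SD, n = 4), differences smaller than the spread within each group.

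**Figure D1:**
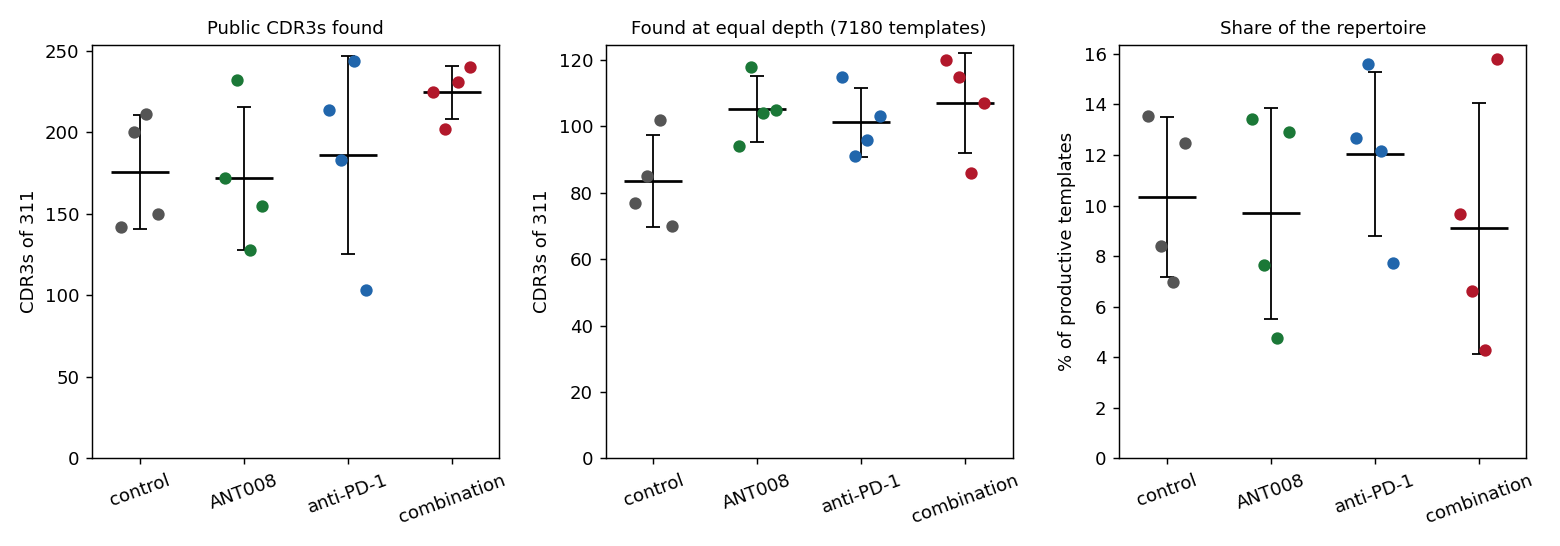
Public CDR3s in each sample by group (4 samples each; the line is the mean and the bar 1 SD). The left panel gives the number found of 311, the middle panel the number found at an equal depth of 7180 templates, and the right panel the percent of productive templates; samples of all 4 groups overlap in each panel.

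Most public CDR3s were small and a few were large. Of the 3032 occurrences of a public CDR3 in a sample, 1084 (35.8%) rested on 1 template, and 239 of the 311 never reached 0.1% of any sample. At the other end, 9 reached 1% in some sample, the top 4 made up 49.0% of the mean public share and the top 10 made up 60.1%. Within a sample, its 10 largest public CDR3s held 47.9% to 87.5% of its public templates. Without the top 4, public CDR3s took up 3.58% to 10.0% of a sample's templates.

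The 15-residue CDR3 of TCRBV16-01 and TCRBJ02-07 had the highest mean share, 1.52% over the 16 samples. It took up 9.14%, 1.18%, 1.05% and 0.00268% of control samples 1 to 4, 1.10%, 0.425%, 0.121% and 4.32% of the ANT008 samples, 0.960%, 1.37%, 1.56% and 0.265% of the anti-PD-1 samples and 2.01%, 0.310%, 0% and 0.523% of the combination samples. Its lowest and highest control values were 1 template and 2376. Samples of the 4 groups overlapped. Where a share of 0% is given, a count of 0 allows up to 0.00413% in the deepest sample and 0.0418% in the shallowest, at 3 counts per library.

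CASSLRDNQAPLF followed with a mean of 1.42%, was held by all control samples and was present or absent within each treated group. It took up 0.450%, 1.54%, 0.921% and 0.233% in control, 5.83%, 0.00304%, 0% and 0% in ANT008, 0.00311%, 2.93%, 5.92% and 0% in anti-PD-1 and 0.00898%, 0%, 0.343% and 4.59% in combination samples. A rearrangement without inserted bases carried 5908 of its templates, in 2 samples.

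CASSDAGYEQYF, with a mean of 1.38%, was held by all control, ANT008 and combination samples. Its control shares were 0.138%, 1.17%, 0.00787% and 5.38%, its ANT008 shares 0.0132%, 2.33%, 0.884% and 1.20%, its anti-PD-1 shares 1.82%, 0%, 0.127% and 0%, and its combination shares 1.55%, 1.10%, 0.360% and 6.04%. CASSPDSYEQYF, the fourth at 0.716%, ran from 0% to 1.08% in control, 0.0347% to 2.07% in ANT008, 0.455% to 2.83% in anti-PD-1 and 0.0187% to 0.487% in combination samples, and the groups overlapped.

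The other 6 of the 10 largest had means of 0.380% (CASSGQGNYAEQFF), 0.182% (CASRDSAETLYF), 0.166% (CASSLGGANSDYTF), 0.1501% (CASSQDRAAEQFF), 0.130% (the 15-residue CDR3 of TCRBV01-01 and TCRBJ01-02) and 0.130% (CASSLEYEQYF). For 2 of these, 1 mouse held most of the summed share. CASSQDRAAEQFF was at 2.21% in anti-PD-1 replicate 1 and at most 0.0881% in the others, and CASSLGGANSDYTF was at 2.09% in control replicate 4 and at most 0.500% in the others. Over all members, the highest sample held a median of 31.9% of a CDR3's summed share.

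**Figure D2:**
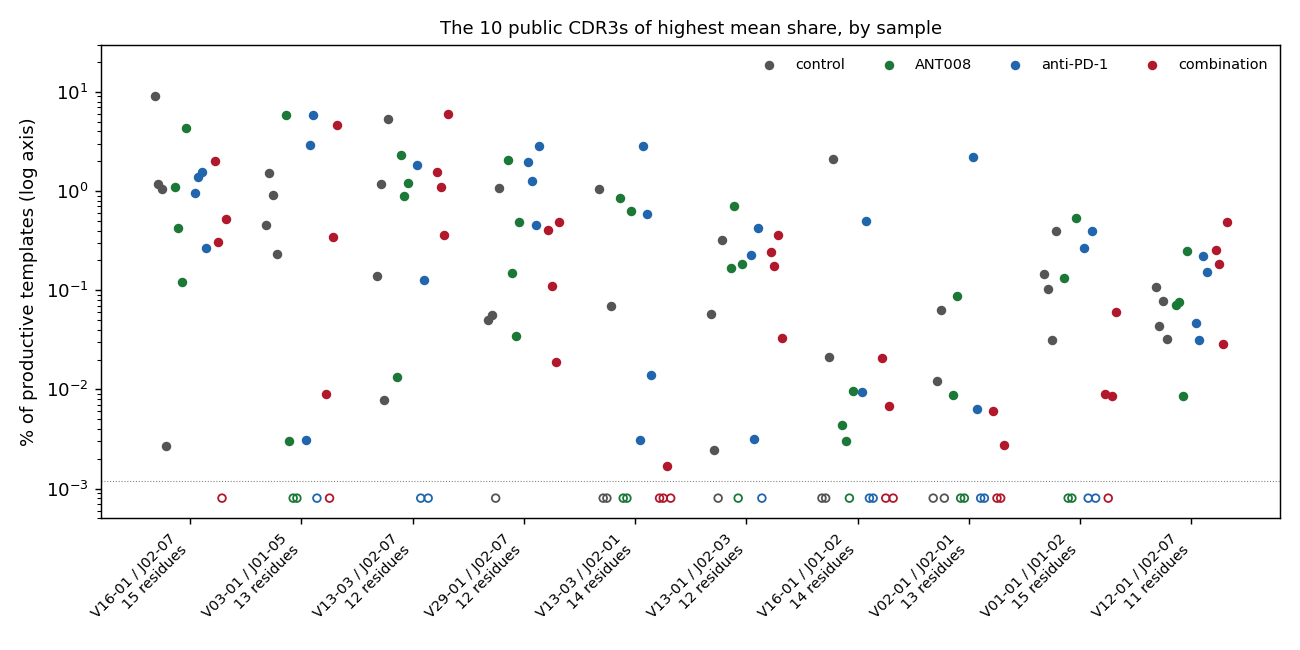
Share of productive templates (%, log axis) in each of the 16 samples for the 10 public CDR3s of highest mean share, labelled by V gene, J gene and length; colours are groups and open circles below the dotted line are samples with 0 templates. Each CDR3 spans a wide range within a group, and the groups overlap.

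The CDR3s found in every mouse had modest shares. Of the 5 CDR3s found in all 16 samples, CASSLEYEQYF was the largest: its shares were 0.108%, 0.0437%, 0.0787% and 0.0322% in control, 0.0705%, 0.0759%, 0.00867% and 0.250% in ANT008, 0.0466%, 0.0316%, 0.219% and 0.153% in anti-PD-1 and 0.254%, 0.183%, 0.0290% and 0.489% in combination samples. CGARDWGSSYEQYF, the smallest of the 5, had 1 to 8 templates in each sample and a mean share of 0.0126%. Between these, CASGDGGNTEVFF had a mean of 0.0483%, the 15-residue CDR3 of TCRBV12-01 and TCRBJ01-04 0.0202% and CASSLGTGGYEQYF 0.0193%. Besides the TCRBV16-01 CDR3 and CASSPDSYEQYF, the members in 15 samples were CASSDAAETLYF (mean 0.125%), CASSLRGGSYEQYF (0.117%), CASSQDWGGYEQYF (0.0945%), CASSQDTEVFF (0.0220%) and a 15-residue CDR3 of TCRBV05-01 and TCRBJ01-04 (0.0103%).

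Junctions of public CDR3s were then set against those of private ones. To keep the sample that is measured out of the choice, each sample's rearrangements were split by the other 15 samples: those of CDR3s found in at least 8 of them (77 to 176 CDR3s per sample) and those of CDR3s found in none (1564 to 9015). Public rearrangements carried 1.68 ± 0.127 inserted bases and private ones 4.21 ± 0.0739 (mean ± SD over 16 samples). The difference was −2.53 (SE 0.0410), lower in 16 of 16 samples. Those without any inserted base were 27.4% of public and 4.19% of private rearrangements, 23.2 percentage points apart (SE 0.786), higher in 16 of 16 samples. Public rearrangements also had shorter CDR3s, with a mean over rearrangements of 40.3 against 42.6 bases (difference −2.36, SE 0.0773, shorter in 16 of 16 samples). In the two-sided exact sign-flip permutation test each of these differences had p = 3.05e-05, the smallest that 16 samples can give, and the same value after Benjamini-Hochberg adjustment over the 6 measures tested. The samples share CDR3s with each other, so the 16 differences were not fully independent. Out-of-frame rearrangements, which cannot be selected for their protein, had means of 3.93 to 4.38 inserted bases per sample.

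**Figure D3:**
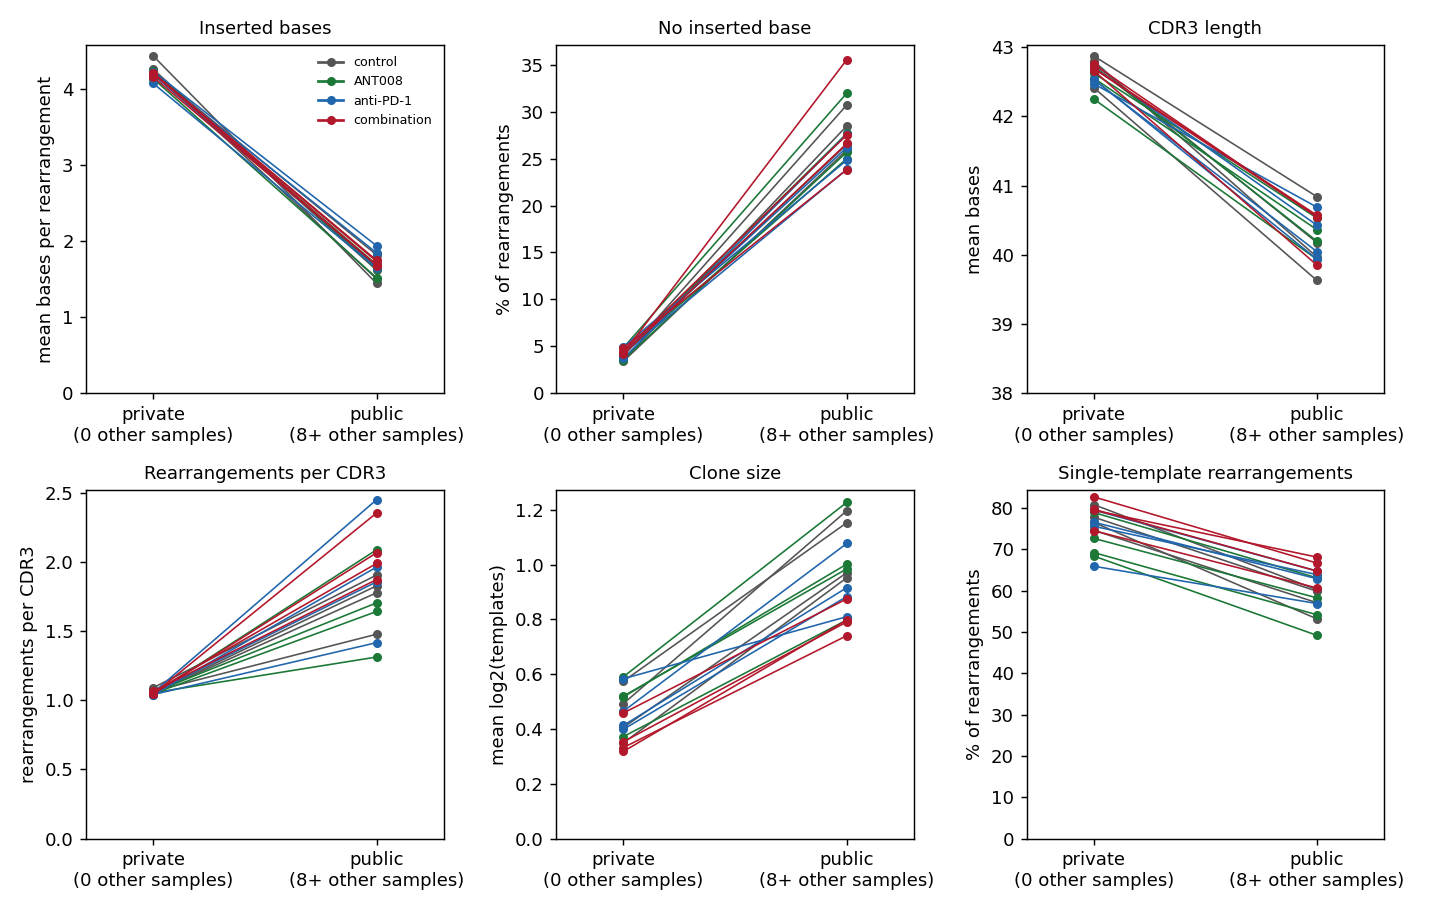
The 6 measures in each of 16 samples, for rearrangements of CDR3s found in no other sample (left) and in at least 8 of the other 15 (right); a line joins the values of 1 sample and colours are groups. All 16 lines go the same way in every panel: fewer inserted bases, more rearrangements without any, shorter CDR3s (axis from 38 bases), more rearrangements per CDR3, larger clones and fewer single-template rearrangements.

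The fall in insertions was graded with sharing up to a point. Over the different nucleotide rearrangements of each class, described without a test, the mean number of inserted bases was 4.198 in 1 sample, 2.67 in 2, 2.35 in 3, 2.06 in 4 to 5, 1.90 in 6 to 7, 1.84 in 8 to 10, 1.82 in 11 to 13 and 2.10 in 14 to 16 samples. Over the rearrangements that the service typed as VDJ, both junctions held fewer inserted bases. The one between V and D had 1.29 in members and 2.16 in private CDR3s, and the D to J junction 0.614 and 2.06. Whether rearrangements without a called D gene are among these is not given here. Insertions still occurred: 133 of the 311 members had at least 1 inserted base in all their rearrangements. No member was longer than 16 residues, a length passed by 5.74% of private CDR3s, and 14 residues was the most common length of members (119 of 311).

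**Figure D4:**
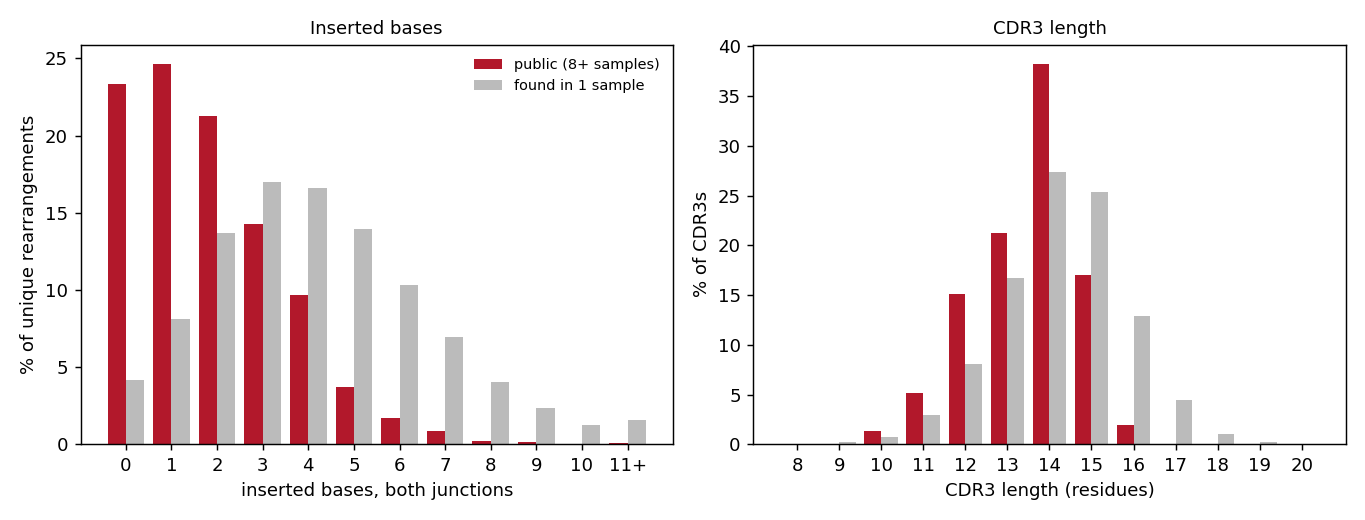
Inserted bases per rearrangement over both junctions (left, percent of the different nucleotide rearrangements) and CDR3 length in residues (right, percent of CDR3s), for the 311 public CDR3s and for CDR3s found in 1 sample. Rearrangements with 0 inserted bases are 23.4% of the public and 4.17% of the private ones, and both length distributions peak at 14 residues.

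Convergence, the making of 1 protein sequence by different recombination events, was counted next. Every member was encoded by at least 2 different rearrangements, with a median of 11 and a range of 2 to 98 over the 16 samples. Within single samples, with the choice again made on the other 15, public CDR3s had 1.86 rearrangements each and private ones 1.05 (difference 0.80, SE 0.0776, higher in 16 of 16 samples, exact sign-flip permutation p = 3.05e-05, adjusted p = 3.05e-05). These counts include entries that share all CDR3 bases and differ only in the V part of the read. Of the 5393 entries of members, 460 (8.53%) had the CDR3 bases of an entry at least 20 times larger in the same sample, with at most 5 templates each, and 250 of these belonged to the 4 largest members. Their part in the rearrangement counts of large members was not tested further, but counting CDR3 bases only, members had a median of 9 nucleotide sequences (2 to 34), and the within-sample values were 1.59 for public and 1.01 for private CDR3s (difference 0.58, SE 0.0618, higher in 16 of 16 samples, exact sign-flip permutation p = 3.05e-05).

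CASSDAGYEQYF shows the size of that correction: it had 98 rearrangements and 11.4 per sample that held it, the most of any member, but 10 different CDR3 nucleotide sequences and 2.07 per sample. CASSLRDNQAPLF went from 51 to 9 and the TCRBV16-01 CDR3 from 41 to 15. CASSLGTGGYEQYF went only from 40 to 34, the largest number of CDR3 nucleotide sequences. At the low end, 14 members had 1 rearrangement in each sample that held them, and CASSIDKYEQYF, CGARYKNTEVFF and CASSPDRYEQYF had the highest mean shares of these. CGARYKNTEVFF was spelled in only 2 ways, 1 of which was found in 7 of its 8 samples.

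Identical rearrangements were also shared between mice. Of the 3933 different rearrangements of members, 782 (19.9%) were found in 2 or more samples, against 1.98% of the 118207 other productive rearrangements. The most widely shared was found in 12 samples, and 16 were found in at least 8. For 36 members no rearrangement was found in more than 1 sample. By CDR3 bases alone, 12 members had no nucleotide sequence in more than 1 sample. When a rearrangement found in several samples counted only in the sample with most of its templates, 178 CDR3s still reached 8 samples, and all 178 were members. Since membership itself requires presence in several samples, these figures are a description. All samples were in 1 sequencing order, and the part that carry-over between samples may have in low counts was not tested.

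Clone size differed as well. Per rearrangement, mean log2 templates were 0.95 ± 0.152 for public and 0.45 ± 0.0920 for private CDR3s within a sample (SD over 16 samples), a difference of 0.50 (SE 0.0285) that was higher in 16 of 16 samples. Single-template rearrangements were 60.2% of public and 75.8% of private ones, 15.6 percentage points fewer (SE 0.898) and fewer in 16 of 16 samples. Both had an exact sign-flip permutation p of 3.05e-05 and the same adjusted value. The choice of members used presence in the other samples, and the part of clone size in that presence was not tested. Over rearrangements found in no other sample, the log2 difference was 0.19 and the single-template difference −8.11 points.

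V and J genes of the members are given as a description. Each member is placed under its main gene, with more of its templates than any other, and each private CDR3 under the gene of its largest rearrangement. TCRBV03-01 (Trbv3) led with 54 members, 17.4% against 6.47% of private CDR3s. TCRBV12-01 (Trbv12-1) had 32 members, 10.3% against 5.21%, and TCRBV05-01 (Trbv5) had 31, 9.97% against 6.70%. TCRBV19-01 (Trbv19) had 28, TCRBV12-02 (Trbv12-2) 21 and TCRBV16-01 (Trbv16) 20. TCRBV13-02 (Trbv13-2), the gene with the most private CDR3s among the genes that members used and picked out after its values were seen, held 4.82% of members and 10.96% of private CDR3s. By rearrangements within samples, TCRBV03-01 made up 8.09% to 15.3% in members and 5.37% to 9.18% in private CDR3s. TCRBV12-01 and TCRBV12-02 together made up 10.4% to 25.6% and 6.63% to 11.7%. TCRBV13-02 made up 2.92% to 9% in members and 8.42% to 13.2% in private CDR3s. The member and private ranges of these V genes overlapped. Of 32 V genes in the productive repertoire, 20 had a member. The same protein could be built from several V genes, and 186 members had at least 2 V genes with 10% or more of their templates each. For 116 members the main V gene held fewer templates than their other V genes together.

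Among J genes, TCRBJ02-07 (Trbj2-7) stood first with 110 members, 35.4% against 18.3% of private CDR3s. By rearrangements within samples it made up 33.3% to 45.4% in members and 17.2% to 20.8% in private CDR3s, with no overlap between these ranges. TCRBJ02-01 (Trbj2-1) had 42 members and TCRBJ02-05 (Trbj2-5) 40, shares of 13.5% and 12.9% beside 13.2% and 11.3% in private CDR3s. TCRBJ01-01 (Trbj1-1) had 22, TCRBJ02-03 (Trbj2-3) 21 and TCRBJ01-04 (Trbj1-4) 19. Each member was encoded with 1 J gene in all its rearrangements. Restricted to TCRBJ02-07, the within-sample difference in inserted bases was −2.66, so it was as large inside this J gene as over all.

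**Figure D5:**
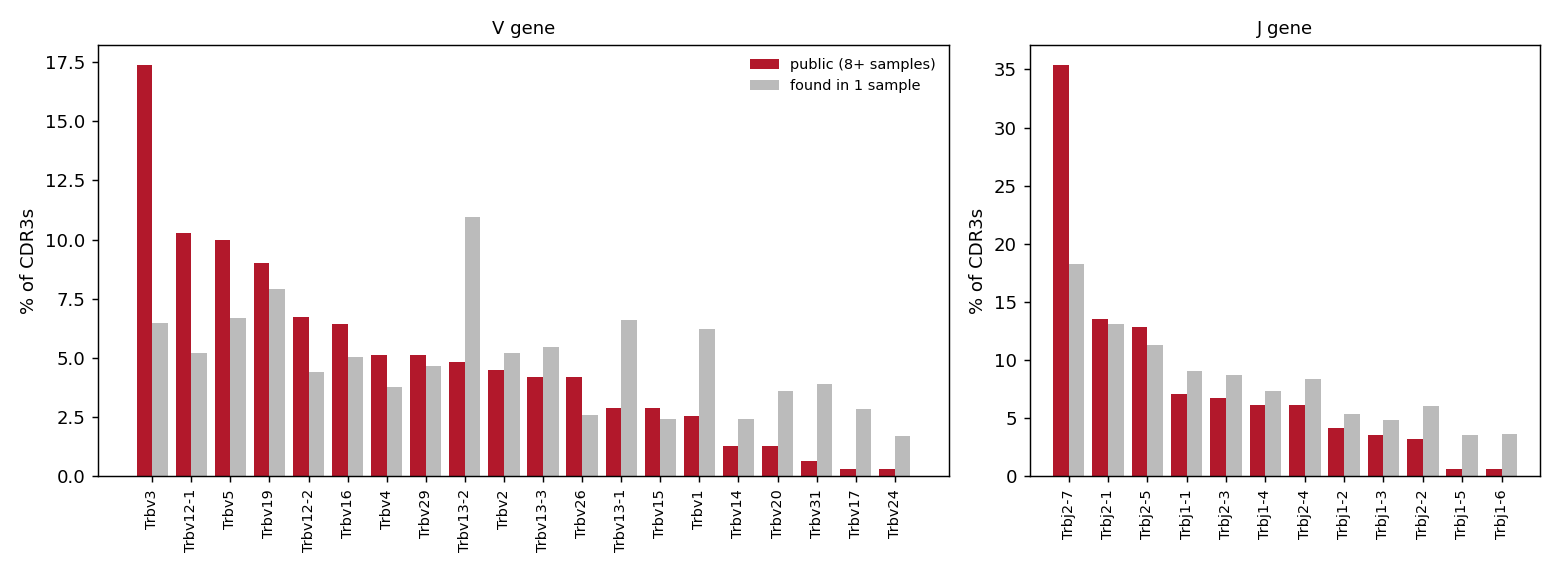
V gene (left) and J gene (right) of the 311 public CDR3s and of CDR3s found in 1 sample, as percent of CDR3s, each under its RefSeq symbol. Trbv3 and Trbj2-7 hold 17.4% and 35.4% of the public CDR3s, beside 6.47% and 18.3% of the private ones.

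Stretches that germline segments can encode were counted in the residues too. The start CASS, which many V genes encode, was found in 89.1% of members and 64.5% of private CDR3s. The ending YEQYF, which the Trbj2-7 segment encodes, was found in 32.5% and 11.7%. The tripeptide DWG, which a reading frame of the D segment TCRBD02-01 can encode, was found in 20.3% and 5.71%. Other stretches rich in glycine, which the D segments can also encode, differed less: GG was found in 30.9% and 26.8%, and GTG or GQG in 10.3% and 8.74%. Of the 311 members, 230 (74.0%) differed from another member by a single residue, and 1 member had 10 such neighbours. No such count is given for other CDR3s, so whether this likeness is particular to members is not known here.

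Treatment was the last comparison. Template counts per CDR3 were compared between each treated group and control with edgeR's quasi-likelihood test over the 2188 CDR3s found in at least 4 samples, which included all 311 members. At an adjusted edgeR p under 0.05, 0 of 311 members were called in each comparison, beside 0% of all CDR3s tested (0 of 2188 in each). With DESeq2, which gave an unadjusted p for 293 members, 0 passed an adjusted p under 0.05 as well. At an unadjusted edgeR p under 0.05, 10 members (3.22%) were higher and 2 (0.643%) lower with ANT008, beside 8.14% and 3.47% of all tested. For anti-PD-1, 5 members (1.61%) were higher and 2 (0.643%) lower, beside 7.36% and 4.2%. The combination had 10 (3.22%) higher and 2 (0.643%) lower, beside 10.4% and 4.3%. By edgeR the members' shares were thus below those of all CDR3s tested, but by DESeq2 they were above. DESeq2 had 8, 8 and 13 members at an unadjusted p under 0.05, which were 2.73%, 2.73% and 4.44% of the 293, beside 0.585%, 0.682% and 1.12% of the 2052 it tested. No reading of the members against the background held for both tools. The 3 comparisons share the control samples.

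The precision for single CDR3s was low. A standard error was approximated as the size of the log2 difference over the square root of edgeR's F statistic. Its median over members was 1.89 for ANT008, 1.90 for anti-PD-1 and 1.83 for the combination. The members' median log2 difference was 0.48 for ANT008, 0.30 for anti-PD-1 and 0.51 for the combination, beside 0.34, 0.23 and 0.66 over all CDR3s tested. With TMM factors applied on top of productive templates as library size, these became −0.03, −0.03 and 0.32, beside 0, 0 and 0.59. The members' median for ANT008 and for anti-PD-1 thus changed sign with the scaling. Unadjusted calls of members were then 6 higher and 4 lower for ANT008, 5 and 4 for anti-PD-1 and 8 and 3 for the combination. That was 3.22%, 2.89% and 3.54% of members in either direction, beside 11.2%, 10.1% and 12.9% of all tested.

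The member with the smallest p in each comparison was listed at 0 templates in 1 of its groups. For ANT008 it was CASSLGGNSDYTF, with 0 templates in the 4 control samples, which allows up to 0.00868% per sample on average at 3 counts per library, and with 0, 10, 0 and 6 templates in the ANT008 samples. This made ANT008 mice at least 1.71-fold higher on average (edgeR adjusted p = 0.382), and 1.11-fold without ANT008 replicate 2. For anti-PD-1 it was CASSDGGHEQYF, with 0, 213, 213 and 0 templates in control and 0 in the 4 anti-PD-1 samples, at least 16.6-fold lower (edgeR adjusted p = 0.390), and at least 10.6-fold without control replicate 3. For the combination it was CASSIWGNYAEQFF, with 0 templates in control and 42, 4, 2 and 2 in the combination samples, at least 4.35-fold higher (edgeR adjusted p = 0.307). Without combination replicate 1 its mean was 0.00842%, under the control limit of 0.00868%. None of the 3 passed the threshold, and these limits cover counting error only.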

How the data were processed

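T cells from 16 tumors were profiled by the immunoSEQ mouse TCRB assay, in which V and J primers amplify the CDR3 and a synthetic repertoire serves to correct primer bias. The deposited entries gave, for each 87-base rearrangement, a template count made by the authors' sequencing service, the V, D and J genes, the inserted bases at each junction and the reading frame. The deposited productive frequency is a fraction of the sample's productive templates. Other deposited columns (positions, insertions) were used as given. Aligner version and genome build are not given in the sources used here. V and J names (32 and 14, all matched) were paired with symbols of the GRCm38.p6 RefSeq table, and no coordinates are given.

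In-frame entries were grouped by CDR3 amino acid sequence. The members and lists were chosen with earlier results of these data known. CDR3s named are those in 15 or 16 samples, the 10 of highest mean share, the 3 with most and 3 with fewest rearrangements per sample (ties by mean share), and the smallest p of each comparison. The 6 within-sample measures were compared by a two-sided exact sign-flip permutation test, and groups by edgeR (4.0.16) with productive templates as library size and a threshold of 0.05, with DESeq2 (1.42.0) as an alternative. Python 3.11.15, pandas 2.3.3, scipy 1.17.1 and R 4.3.3 were used, and the tests were tried on simulated data. The labels do not say what a replicate number marks. Same-numbered samples did not deviate together (correlations −0.0325 to 0.0593, 0 pairs over 0.1), so the main fit had no block. Alternatives were other sharing thresholds, other presence rules, thinning, other filters and scalings, and leaving out each sample.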

Additional observations from a re-analysis of the deposited data

Results flagged for a closer look

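In 76 groups of 4 samples checked for 1 sample far from the other 3, 11 had such a sample. Chance flags about 1 in 20 groups where values are normally distributed. Shares of single CDR3s were skewed, some with counts of 0, so that rate is no yardstick for the 11. Among the shares of large public CDR3s, the 15-residue CDR3 of TCRBV16-01 and TCRBJ02-07 stood at 9.14% in control replicate 1, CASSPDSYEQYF at 1.08% in control replicate 4, and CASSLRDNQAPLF at 5.83% in ANT008 replicate 1 and 4.59% in combination replicate 4. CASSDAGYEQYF stood at 1.82% in anti-PD-1 replicate 1, and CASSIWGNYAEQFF at 0.126% in combination replicate 1. Public CDR3s made up 4.03% of rearrangements in ANT008 replicate 2, below its group, and 5.20% in combination replicate 2, above its group. The mean number of inserted bases in members was 1.56 in ANT008 replicate 3, the lowest of that group. The public minus private difference in inserted bases was −2.52 in combination replicate 1, and that in CDR3 length was −2.81 bases in combination replicate 4. The cause of these values was not tested.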

How the results depend on the processing

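The number of public CDR3s depended on the definition. It was 469 with at least 7 samples, 208 with at least 9, 81 when presence needed 2 or more templates, 114 when V and J genes had to match, 47 after thinning to 7180 templates, 178 with each rearrangement counted in 1 sample, and 240 to 285 when 1 sample was left out. Under these definitions the anti-PD-1 share of templates moved from 12.03% to between 6.22% and 15.7%, and the shares of the other groups moved by less than 1 SD. Without the 4 largest members, an alternative added after seeing the data, the shares were 4.74%, 4.94%, 6.66% and 4.63%.

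The 6 public minus private differences kept their direction and passed the threshold under every alternative run, except that length could not differ when only the most common CDR3 length was kept, with a highest adjusted p of 6.1e-05 in the exact sign-flip permutation test. They were smallest against CDR3s found in 1 to 3 other samples for inserted bases (−0.79), rearrangements without any (12.5 points) and length (−0.70 bases), and over rearrangements found in no other sample for rearrangements per CDR3 (0.47), log2 templates (0.19) and single templates (−8.11 points). Collapsing entries with the same CDR3 bases, added after seeing the data, gave −2.56 inserted bases, 0.58 rearrangements per CDR3 and 0.63 log2 templates. Leaving out 1 sample, with presence required in 8 of the 14 others left, gave −2.57 to −2.47 inserted bases, 22.0 to 24.4 points, −2.59 to −2.33 bases, 0.85 to 0.89 rearrangements, 0.49 to 0.55 log2 templates and −16.5 to −15.2 points.

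No member passed an adjusted p of 0.05 in any comparison with any of the edgeR or DESeq2 alternatives, including the 48 comparisons with 1 sample left out, and the lowest adjusted p of a member was 0.111. With the replicate number as a block, 0 members passed, and 7, 6 and 7 had an unadjusted p under 0.05 (2.25%, 1.93% and 2.25% of members, beside 2.74%, 2.42% and 3.61% of all tested), against 12, 7 and 12 without the replicate block (3.86%, 2.25% and 3.86%, beside 11.6%, 11.6% and 14.7%). The gap between members and all tested was thus smaller with the block. Over all CDR3s tested, DESeq2 called 1, 2 and 1 and edgeR on numbers of rearrangements 0, 1 and 2, none of them members. Depth limits presence, as 35.8% of occurrences rested on 1 template.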
